A study of Mus musculus with 8 samples.

Results

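Nrcam and 7 other genes of enteric neurons and glia (Vip, Uchl1, Prph, Gap43, Snap25, S100b and Sox10) were followed across ileal tumours of mice. They were taken by gene symbol from the probes of the unnormalized array table. The set was chosen by the measured difference of Nrcam between the groups of these same arrays, so the values of Nrcam are a description and carry no test. Of the 8 genes, 7 had a probe, among 18138 distinct symbols on the array, and Sox10 had none. Those 7 genes had 8 probes, of which Vip had 2.

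RNA was measured on 8 Illumina bead arrays. The 4 VP16LXRa tumours (replicates 5 to 8) came from APCmin/+/VP16LXRa mice, in which the liver X receptor LXRα is joined to VP16, a viral domain that activates transcription. The 4 VP16 tumours (replicates 1 to 4) came from APCmin/+/VP16 mice, the control with VP16 alone. All animals shared the APCmin/+ allele, which makes mice form intestinal tumours, a mixed C57BL/6J-FVBN strain and an age of 8 months. The labels give no sex, chip or batch, no promoter for either transgene, and no statement on whether RNA was pooled or each array is a separate animal, so a p-value here covers only the spread among these samples, which may be technical.

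The gut has its own nervous system, whose neurons and glia lie in ganglia between and beneath the muscle layers and send fibres into the mucosa. Its neurons control motility and secretion through acetylcholine, nitric oxide and peptides such as vasoactive intestinal peptide, and its glia surround them much as astrocytes do in the brain. NrCAM is an adhesion molecule of the L1 family that binds ankyrin inside the cell and takes part in axon guidance and in the assembly of nodes of Ranvier. NRCAM has also been described in human colorectal cancer cells as a target of β-catenin, the protein that Apc restrains. LXRα is a nuclear receptor activated by oxysterols, known for its control of cholesterol efflux.

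The promoters of Nrcam and Vip are shown because these 2 members had the largest differences between the groups. The windows are the 250 bases before the start of each gene in RefSeq (GRCm38.p6), at chr12:44328635-44328884 for Nrcam and chr10:5638968-5639217 for Vip, both on the + strand and printed 5′ to 3′. Capitals mark matches to the motifs searched.
Nrcam: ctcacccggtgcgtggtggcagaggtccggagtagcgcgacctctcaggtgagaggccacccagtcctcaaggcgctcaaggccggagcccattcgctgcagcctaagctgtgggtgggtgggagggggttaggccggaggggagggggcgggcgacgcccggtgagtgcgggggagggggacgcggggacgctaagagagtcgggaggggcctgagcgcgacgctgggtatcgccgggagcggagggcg
Vip: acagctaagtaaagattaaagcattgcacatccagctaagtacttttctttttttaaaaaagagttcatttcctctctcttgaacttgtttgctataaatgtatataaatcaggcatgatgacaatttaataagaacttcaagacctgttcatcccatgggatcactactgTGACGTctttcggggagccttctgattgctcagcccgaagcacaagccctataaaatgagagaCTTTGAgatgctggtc
The Nrcam window was rich in G and C (72.4%, with 25 CpG dinucleotides), and the Vip window poor in them (38.4%, with 3 CpG), against medians of 52.4% and 6 over all 32851 windows of this length. On both strands the searched motifs were TGACGT, part of the element bound by CREB, CTTTGA, the core bound by TCF and LEF, AGGTCA, bound by nuclear receptors such as LXR, and the LXR direct repeat, which is AGGTCA, any 4 bases and AGGTCA again. Vip held TGACGT at 79 bases and CTTTGA at 16 bases before its start, motifs present in 6.47% and 13.8% of all windows. AGGTCA lay in 14% of all windows and the direct repeat in 5 of them (0.0152%), and neither was in the windows of Nrcam, Vip, Uchl1, Prph or S100b, the 5 members with a window in the table used. A match is a stretch of letters and not a measured binding site, and the absence of one concerns this window only.

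A detection p-value says how often a negative control bead on the same array was at least as bright, and a probe counts as detected where it was under 0.05. Levels are log2 of the background-corrected and quantile-normalized signal, and a difference is the mean VP16LXRa level minus the mean VP16 level. The array held 25697 probes, and each tumour had 49.0% to 54.7% of them detected. The test, in limma, covered the 13426 probes (10054 genes) with detection in 4 or more of the 8 tumours, and none passed an adjusted p of 0.05 (0% of tested probes), with a smallest adjusted p of 0.0795 and 340 probes (2.53%) at an unadjusted p under 0.05. The groups did not overlap for 1.74% of tested probes, 1.01% with VP16LXRa higher and 0.722% with VP16LXRa lower, and 50.2% of tested probes had a difference above 0. Over tested probes, the typical (median) correlation with the remaining arrays was 0.869 for VP16LXRa 5, 0.910 for VP16 4 and between 0.932 and 0.942 for the other 6 arrays.

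Nrcam was higher in the VP16LXRa tumours, and of the 8 member probes it was the only one whose groups did not overlap. Its log2 levels were 7.22, 6.30, 7.14 and 5.45 in VP16LXRa 5 to 8, against 4.78, 4.58, 5.18 and 4.50 in VP16 1 to 4. Every VP16LXRa tumour lay above every VP16 tumour, but VP16LXRa 8 lay only just above VP16 3. The means were 6.53 ± 0.83 in VP16LXRa and 4.76 ± 0.30 in VP16 tumours (SD, n = 4 each), a difference of 1.77 (SE 0.40). Here and below, the SE of a difference is limma's moderated one, which also draws on the spread of all tested probes. A single probe, ILMN_1245780 on chromosome 12, stands for the gene.

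The Nrcam probe was dim. It was detected on 4 of 4 VP16LXRa arrays and on 1 of 4 VP16 arrays, so it entered the tested set through the VP16LXRa arrays and the difference is in part between a measured level and background. Its bead signal before any correction was 210, 219, 235 and 161 in VP16LXRa 5 to 8, against 134, 129, 165 and 127 in VP16 1 to 4. On that raw scale VP16 3 exceeded VP16LXRa 8, so the groups overlapped. The dimmest detected probe of each array had a signal between 134 and 164, and the median log2 level of undetected probes was between 4.56 and 4.59. The 3 VP16 arrays without detection of Nrcam therefore read at or near the level of undetected probes.

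The size of the Nrcam difference depended on the handling of background. Without background correction it was 0.64, and with an offset of 50 in place of 16 it was 1.08. In the authors' processed table, where the values were 133, 62.9, 125 and 27.9 in VP16LXRa 5 to 8 and 8.39, 0.934, 19.9 and -3.03 in VP16 1 to 4, it was 2.12 after a floor of 16. Leaving out single arrays moved it between 1.53 (without VP16LXRa 5) and 2.12 (without VP16LXRa 8). In each of these settings the groups did not overlap.

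**Figure D1:**
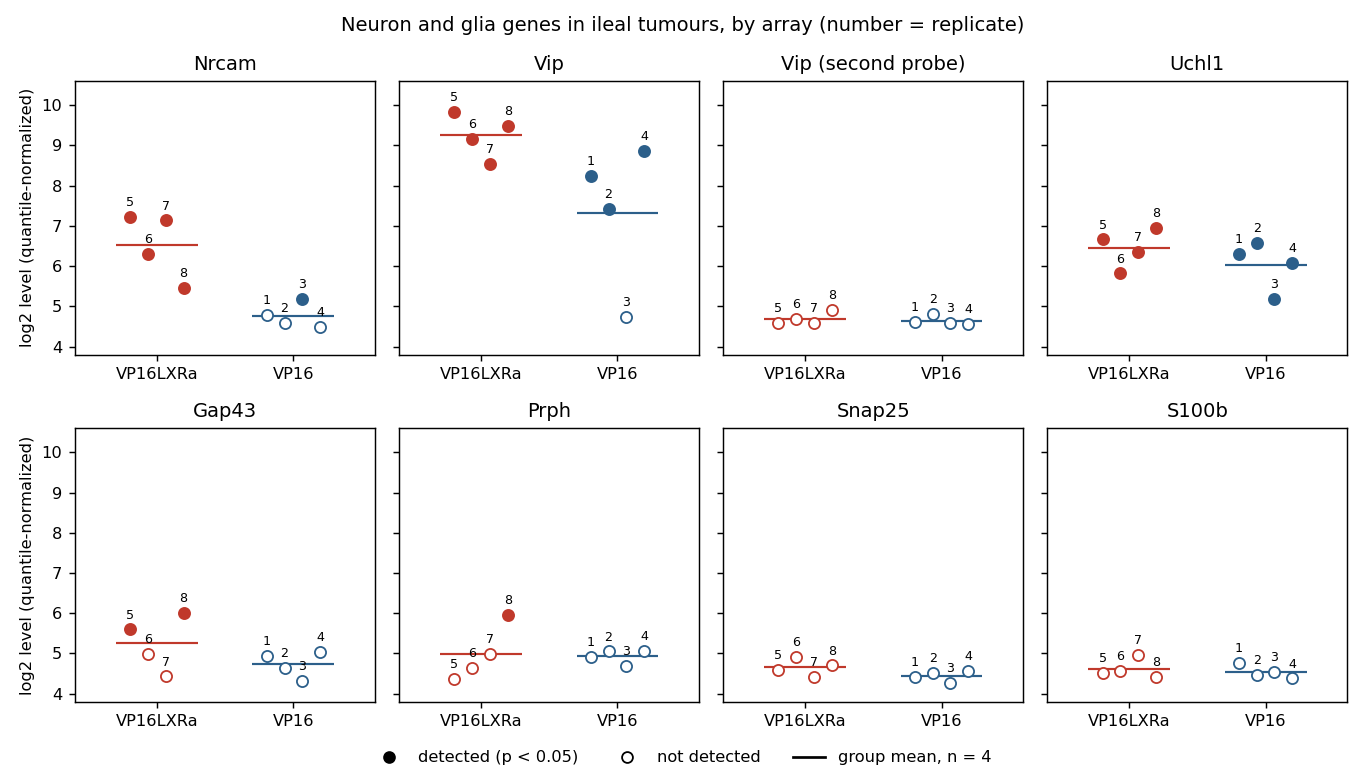
Log2 level (y axis) of each member probe on each array, with VP16LXRa left of VP16, a number for the replicate, filled points where the probe was detected, open points where it was not, and a bar for the group mean (n = 4 arrays). Nrcam is apart between the groups, Vip and Uchl1 overlap, and nearly all points of the other probes are open.

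Among the neuronal members, Vip had a difference as large as that of Nrcam, but its groups overlapped. Vip encodes vasoactive intestinal peptide, the transmitter of inhibitory motor neurons and of neurons that drive secretion. Its detected probe (ILMN_2943387, chromosome 10) had log2 levels of 9.83, 9.15, 8.54 and 9.49 in VP16LXRa 5 to 8, against 8.24, 7.42, 4.74 and 8.86 in VP16 1 to 4. VP16 4 exceeded VP16LXRa 7, and VP16 3, the lowest, was the only array on which this probe was not detected. The means were 9.25 ± 0.55 in VP16LXRa and 7.31 ± 1.82 in VP16 tumours (SD, n = 4 each). The difference of 1.94 (SE 0.79) did not pass after Benjamini-Hochberg adjustment in limma (adjusted p = 0.998, unadjusted p = 0.035). Without VP16 3 it was 1.08, and without VP16 4 it was 2.46. The second Vip probe was detected on no array, with means of 4.69 in VP16LXRa and 4.64 in VP16 tumours, so that the gene's values come from a single probe.

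Uchl1 encodes a ubiquitin hydrolase, also called PGP9.5, that marks nerve cell bodies and fibres and is found in endocrine cells as well. It was detected on all 8 arrays (ILMN_1225261, chromosome 5). Its levels were 6.66, 5.82, 6.36 and 6.95 in VP16LXRa 5 to 8, against 6.31, 6.58, 5.19 and 6.07 in VP16 1 to 4. The groups overlapped over most of their range, with VP16LXRa 8 highest and VP16 3 lowest. The difference of 0.41 (SE 0.36) did not pass in limma (adjusted p = 0.998), and it was 0.13 without VP16 3. Of the 2 tested members other than Nrcam, 0 passed and 1, Vip, had an unadjusted limma p under 0.05, against 2.53% of all tested probes.

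Axon growth and cytoskeletal members were at the edge of detection and were not tested. Gap43, a protein of growing axon tips, was detected on VP16LXRa 5 and VP16LXRa 8 alone, with log2 levels of 5.60, 4.98, 4.43 and 6.01 in VP16LXRa 5 to 8, against 4.95, 4.64, 4.32 and 5.04 in VP16 1 to 4. Since no VP16 array detected it, its mean of 5.25 over the VP16LXRa arrays gives a lower bound, at least 1.09-fold higher in VP16LXRa than the lowest detected levels of the VP16 arrays. That mean rests on VP16LXRa 8, since the other 3 VP16LXRa arrays average 5.00, under the mean limit of 5.12, and give no fold. This bound takes, for each VP16 array, the lowest level among detected probes or the probe's own where that is higher. Prph, the intermediate filament peripherin of peripheral neurons, was detected on VP16LXRa 8 alone, at a level of 5.96, against 4.36 to 4.99 on the other VP16LXRa arrays and 4.70 to 5.05 on the VP16 arrays. No fold is given for Prph, since its VP16LXRa mean lies below that limit.

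The synaptic and glial members gave no signal above background. Snap25, a SNARE protein of transmitter release, was detected on none of the 8 arrays, with levels of 4.42 to 4.92 in VP16LXRa and 4.28 to 4.56 in VP16 tumours. S100b, a calcium-binding protein of glia, was detected on none either, with levels of 4.41 to 4.97 in VP16LXRa and 4.38 to 4.76 in VP16 tumours. With Sox10, the transcription factor of enteric glia and Schwann cells, not represented by a probe, the glial side of the set had no measured level. In total 3 of the 7 genes with a probe were tested, and 4 were not.

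The members shared some of their array order and not all of it. VP16LXRa 5 was the highest of all 8 arrays for Nrcam and for Vip, and the second highest for Uchl1 and Gap43. For Prph it was the lowest of all 8, without detection. Within the VP16LXRa group, Nrcam was lowest in VP16LXRa 8, the array with the highest level among all 8 for Uchl1, Prph and Gap43 and the second highest for Vip. Within the VP16 group, Nrcam was highest in VP16 3, the array with the lowest level among all 8 for Vip and Uchl1. Likeness to Nrcam was measured as the root mean square of the array-by-array difference over the 8 arrays, after each probe was centred on its own mean. It was 1.08 log2 for Uchl1 and 1.45 for Vip, against a median of 1.09 over all tested probes. By this measure 6246 tested probes were nearer to Nrcam than Uchl1 was, and 11818 were nearer than Vip. The measure keeps the size of each swing, so a probe that hardly varies between arrays also counts as nearer than Uchl1 or Vip. These counts therefore do not rank the probes by shared direction.

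The 5 genes nearest to Nrcam were C4bp (0.29), Scnn1b (0.34), Pitx1 (0.38), Hamp (0.39) and Trpm5 (0.42). Of these, 0 were members or in the neuron and glia lists described next. Those lists held 37 and the members 3 of the 10054 tested genes. A count of 0 in 5 is therefore near that share and says nothing about neural genes. C4bp encodes a complement inhibitor, Scnn1b a subunit of the epithelial sodium channel, Pitx1 a homeodomain transcription factor, Hamp the iron hormone hepcidin, and Trpm5 a cation channel of taste and tuft cells. C4bp had levels of 7.59, 7.33, 8.06 and 5.72 in VP16LXRa 5 to 8, against 5.34, 4.82, 5.47 and 5.14 in VP16 1 to 4. Trpm5 had 6.06, 5.99, 7.15 and 5.45 in VP16LXRa 5 to 8 and was detected on no VP16 array, a bound of at least 2.05-fold higher in VP16LXRa. It entered the tested set through the VP16LXRa arrays alone. Its VP16LXRa mean of 6.16 falls to 5.83 without VP16LXRa 7, against a mean limit of 5.12 in VP16, so the bound shrinks. As with Nrcam, VP16LXRa 8 was the lowest VP16LXRa array in 5 of these 5 genes, and VP16 3 the highest VP16 array in 4 of 5. The differences were 1.98 for C4bp, 1.15 for Scnn1b, 1.36 for Pitx1 and 1.27 for Hamp, with Scnn1b and Hamp each detected on 1 of 4 VP16 arrays. These genes were chosen for their likeness to Nrcam, so their differences and their shared array order follow from the choice and have no test here.

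**Figure D2:**
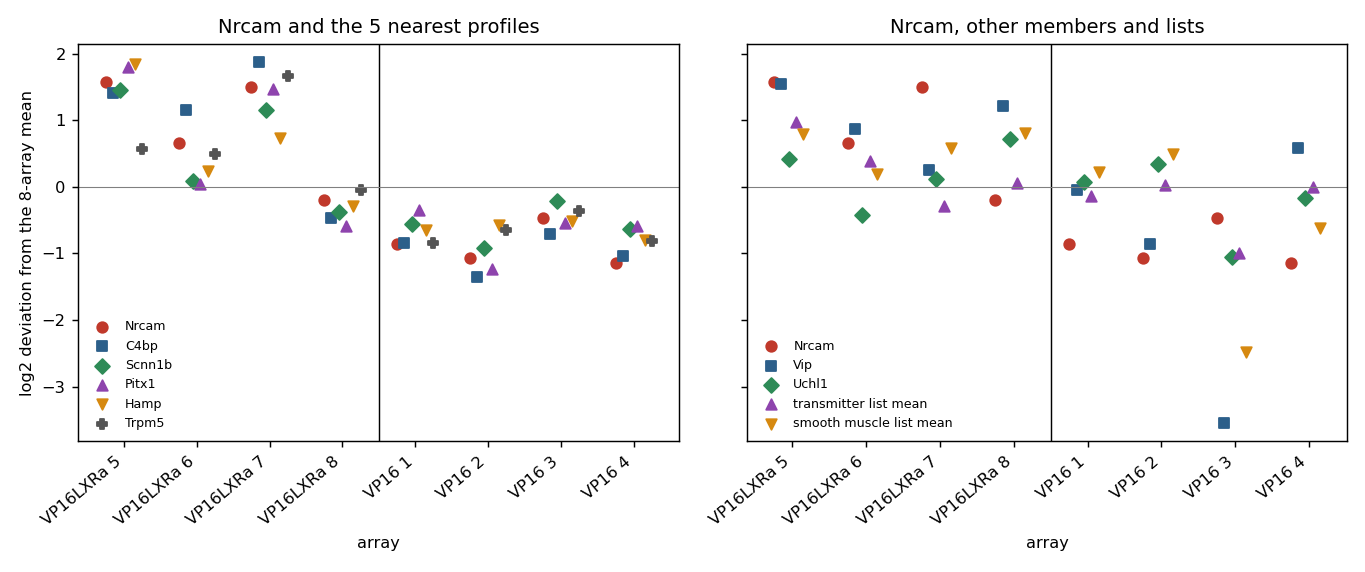
Deviation of each array (x axis, VP16LXRa left of VP16) from the probe's 8-array mean in log2 units (y axis), for Nrcam and the 5 nearest genes on the left and for Nrcam, Vip, Uchl1 and the means of 2 gene lists on the right. Nrcam dips in VP16LXRa 8, where Vip and Uchl1 do not, and its nearest genes dip there too, having been chosen for likeness to it. Vip and the smooth muscle list lie far below 0 in VP16 3.

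To set the members beside the rest of the nervous tissue, 4 lists of genes of neurons, transmitters, synaptic vesicles and glia were described. The lists held 78 genes with a probe, of which 37 were tested and 16 were detected on no array. Of the 37, 24 had a higher and 13 a lower mean in VP16LXRa tumours (64.9% higher, against 50.2% of all tested probes), with a median difference of 0.23, against 0.0018 over all tested probes. None passed in limma (0% of all tested probes did), and 3 of the 37 (8.11%) had an unadjusted limma p under 0.05, against 2.53% of all tested probes. For 3 of the 37 (8.11%), Syn1, Syn2 and Cryab, the groups did not overlap, against 1.01% of all tested probes with VP16LXRa higher. Detection in the VP16LXRa group alone is enough to enter the tested set, so such counts lean on genes that reached detection. Without VP16 3 or without VP16LXRa 5, 21 of the 37 were higher.

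Genes that define nerve cells were mostly at or under detection in these tumours. Tubb3, neuronal tubulin, was detected on 1 VP16LXRa array and no VP16 array, and Elavl4, the HuD RNA-binding protein, on 2 VP16LXRa arrays and no VP16 array. Chat, which makes acetylcholine, was detected on 2 VP16LXRa arrays and 1 VP16 array, and Nos1, Ncam1 and Nefl on none. Other untested genes of these lists leaned either way. Phox2a was detected on 3 VP16LXRa arrays and no VP16 array, Chrnb4 and Gad1 each on 2 VP16 arrays alone, and Dcx on 1 VP16LXRa array and 2 VP16 arrays. Of the glial genes, Gfap was detected on 1 VP16 array alone, and Foxd3, Fabp7, Sox2 and Cdh19 on none. In bulk tumour RNA, fewer cells of a type and less RNA per cell cannot be told apart.

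Of the 6 tested genes of the neuron list, VP16LXRa tumours had 3 higher and 3 lower, and the median difference was 0.19. The 3 lower were Ret (-0.39), Thy1 (-0.28) and Map2 (-0.04). Stmn2, a microtubule regulator of growing axons, had levels of 7.37, 6.64, 6.54 and 7.24 in VP16LXRa 5 to 8, against 6.68, 7.05, 4.32 and 5.71 in VP16 1 to 4, and was not detected in VP16 3. Its difference of 1.01 (SE 0.55) was 0.47 without VP16 3. Rtn1, a reticulon of neuroendocrine cells, differed by 0.75 (SE 0.36), Mapt, the microtubule protein tau, by 0.43 (SE 0.39), and Thy1, a surface protein that fibroblasts and T cells carry too, by -0.28 (SE 0.59). None of the 6 passed, with limma adjusted p = 0.998 for each of Stmn2, Rtn1, Mapt and Thy1. The Rtn1 difference was 0.47 without VP16 3, that of Mapt 0.06 without VP16LXRa 5, and that of Thy1 0.04 without VP16 2 and -0.87 without VP16LXRa 5.

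Peptide and transmitter genes were the neural list with the highest median difference, 0.68 over 9 tested genes, but 0.35 without VP16 3 and 0.36 without VP16LXRa 5. In VP16LXRa tumours 7 of the 9 were higher, 2 were lower and 0 passed. The 2 lower were Grp (-0.35) and Calca (-0.03). Gal, which encodes the neuropeptide galanin, had levels of 10.83, 9.45, 8.14 and 8.90 in VP16LXRa 5 to 8, against 8.86, 9.06, 5.29 and 8.74 in VP16 1 to 4. As with Vip, the lowest of all arrays by far was VP16 3. The Gal difference of 1.34 (SE 0.88, limma adjusted p = 0.998) was 0.45 without VP16 3, and that of Cartpt, the CART peptide, was 0.93 (SE 0.85, limma adjusted p = 0.998) and 0.31 without VP16 3. Npy, the peptide of enteric and sympathetic neurons, was highest of all arrays in VP16 4 at 7.39 and differed by 1.09 (SE 0.56, limma adjusted p = 0.998), or 1.68 without VP16 4. Ddc, the enzyme that makes dopamine and serotonin, differed by 0.39 (SE 0.59), or -0.02 without VP16LXRa 8.

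Of 13 tested genes of vesicle release, VP16LXRa tumours had 9 higher and 4 lower. The median difference was 0.23, or 0.12 without VP16LXRa 5, and 0 passed. The lower genes included Stx1a (-0.31), Vamp2 (-0.13) and Vamp1 (-0.05). Syn1 and Syn2 encode synapsins, which tether synaptic vesicles. Syn2 had levels of 6.65, 5.91, 6.37 and 6.19 in VP16LXRa 5 to 8, against 5.72, 5.17, 4.74 and 5.29 in VP16 1 to 4, a difference of 1.05 (SE 0.27, limma adjusted p = 0.998). Syn1 had levels of 7.65, 6.19, 6.25 and 5.79 in VP16LXRa 5 to 8, against 5.65, 5.16, 4.88 and 5.13 in VP16 1 to 4. For both genes the groups did not overlap and VP16 3 was the array without detection. The Syn1 difference was 1.26 (SE 0.39, limma adjusted p = 0.998), while a second Syn1 probe differed by 0.56 with overlapping groups. Syp, the vesicle protein synaptophysin, which endocrine cells share, differed by 0.57 (SE 0.41), or 0.21 without VP16LXRa 5, and the fusion factor Nsf, expressed well beyond neurons, by 0.12, or 0.04 without VP16LXRa 5.

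The glial list had a median near 0, at 0.07 over 9 tested genes, of which 5 were higher in VP16LXRa tumours, 4 were lower and 0 passed. Cryab, a small heat shock protein that muscle expresses as well, had levels of 9.11, 6.95, 8.67 and 7.29 in VP16LXRa 5 to 8, against 6.67, 6.58, 4.55 and 5.94 in VP16 1 to 4. The groups did not overlap, the difference was 2.07 (SE 0.60, limma adjusted p = 0.998), and VP16 3 was again the array without detection. Ngfr, the neurotrophin receptor p75 of glia and Schwann cells, differed by 0.73 (SE 0.38), Entpd2, an ectonucleotidase, by -0.19 (SE 0.34), and Pmp22, a myelin protein also made elsewhere, by -0.44 (SE 0.46), with limma adjusted p = 0.998 for each. Without 1 array these became 0.40 for Ngfr (VP16LXRa 5), -0.01 for Entpd2 (VP16 2) and -0.17 for Pmp22 (VP16 3).

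**Figure D3:**
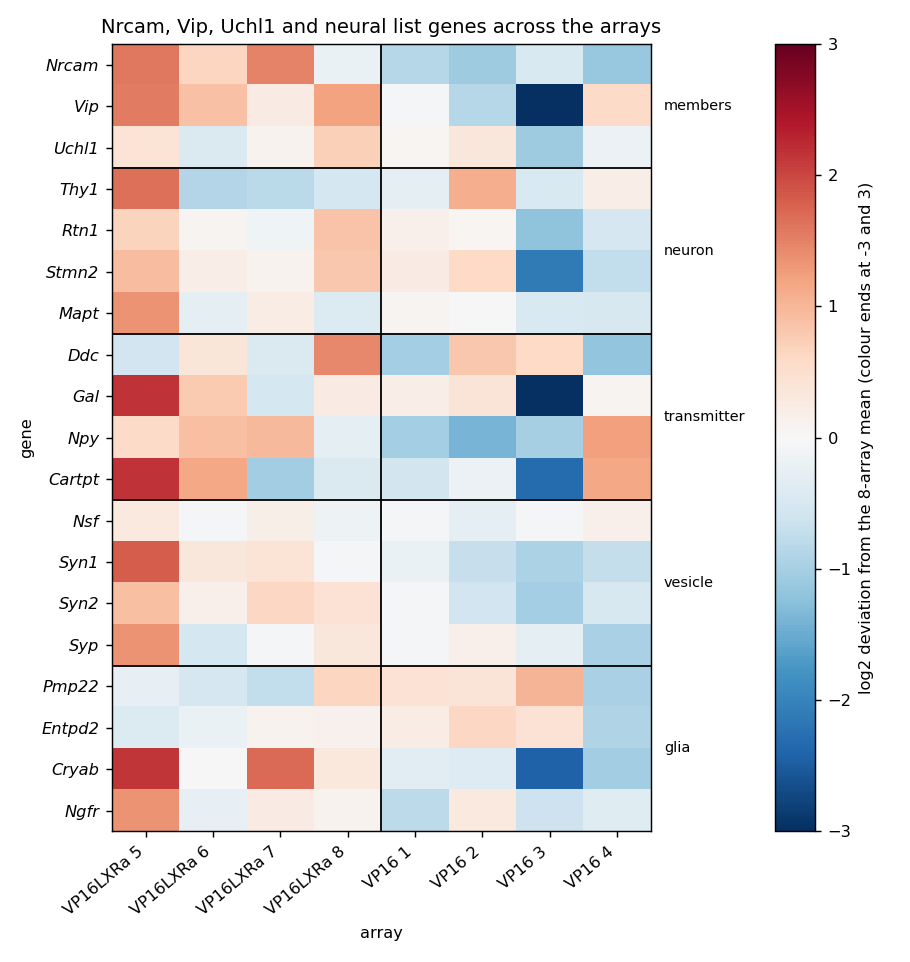
Log2 deviation from the 8-array mean (colour, from -3 to 3) of Nrcam, Vip, Uchl1 and the named genes of the 4 neural lists (rows) on each array (columns, VP16LXRa left of VP16). Gal, Cartpt and Cryab were each highest in VP16LXRa 5 and lowest in VP16 3, and Nrcam was highest in VP16LXRa 5 too but not lowest in VP16 3.

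In 13 of the 37 tested neural genes, VP16 3 was the lowest of all 8 arrays. The share of all tested probes lowest in VP16 3 was not counted, so this count has no background beside it. VP16 3 was lowest for 7 of 9 fibroblast, 1 of 15 enteroendocrine and 0 of 9 epithelial genes. It also had the fewest neural genes detected, 30 of 78, against 40, 43 and 41 in the other VP16 tumours and 44, 41, 39 and 41 in VP16LXRa 5 to 8. Of all probes, 51.1% were detected in VP16 3, within the range of 49.0% to 54.7% over the 8 arrays. A list's score on an array is the mean over its tested genes of the deviation from the 8-array mean. VP16 3 had the lowest score in all 4 neural lists, between -0.99 for transmitters and -0.36 for vesicle release, and VP16LXRa 5 had the highest, between 0.45 for glia and 1.02 for neurons. VP16LXRa 5 is also the array that correlated least with the others.

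Markers of the muscle wall, in which the ganglia lie, moved with VP16 3 too. Of 14 tested smooth muscle genes, 13 were lowest in VP16 3, a count that also lacks the share over all tested probes. The list score there was -2.47, against 0.20 to 0.80 in VP16LXRa tumours and -0.62 to 0.49 in the other VP16 tumours. The median difference of this list was 0.97, and 0.35 without VP16 3. Fibroblast genes (9 tested, 7 higher) had a median of 0.60, and -0.07 without VP16 3, with scores of -0.15 to 0.91 in VP16LXRa and -1.55 to 0.93 in VP16 tumours. Of the 15 smooth muscle genes with a probe, Synpo2 alone was detected on no array. The part of muscle and stroma in the Vip, Gal and synapsin values was not tested.

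Hormone cells of the epithelium also make peptides, vesicle proteins and Uchl1. Of 15 tested enteroendocrine genes VP16LXRa tumours had 5 higher and 10 lower, with a median difference of -0.11, but 11 of 15 were higher without VP16 3, with a median of 0.08. The scores were -0.31 to 0.11 in VP16LXRa and -0.63 to 0.51 in VP16 tumours. VP16 3, lowest for the neural lists, had the highest enteroendocrine score. Epithelial genes had a median of -0.08 (1 of 9 higher), or -0.24 without VP16 4, and ileal genes one of -0.17 (0 of 4 higher), or 0.03 without VP16 2. Interstitial cells of Cajal, the pacemakers beside the ganglia, had 2 tested genes, both higher by 0.37 and 0.39, with a median of 0.23 without VP16LXRa 5.

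**Figure D4:**
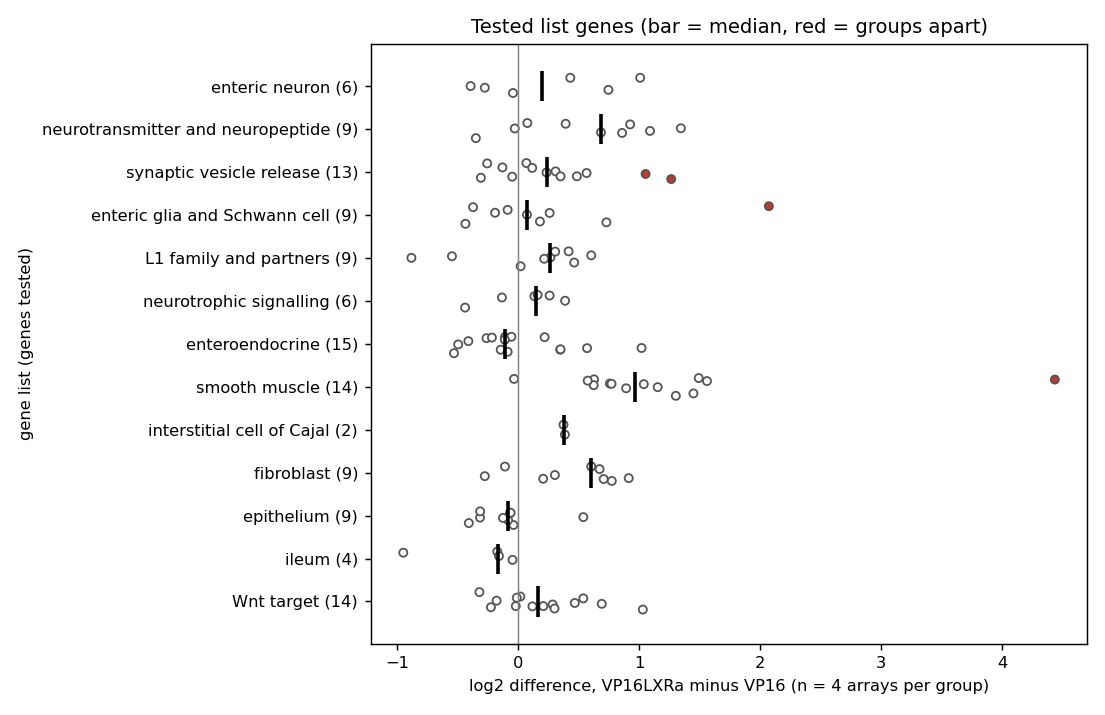
Difference between VP16LXRa and VP16 tumours in log2 units (x axis, n = 4 arrays per group) of each tested gene of the 13 lists (rows, number tested in brackets), with the list median as a bar and genes whose groups do not overlap in red. Medians of the neural lists lie between 0.07 and 0.68, the smooth muscle median is 0.97, and the point at 4.43 is Csrp1, a muscle LIM protein gene.

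Other members of the L1 family and their partners were described because they share binding partners with NrCAM. The family itself was barely detected, L1cam on 1 VP16 array, Chl1 on 1 VP16LXRa array and Nfasc on 3 VP16 arrays. Of 9 tested genes of this list, VP16LXRa tumours had 7 higher and 2 lower, and 0 passed. The median difference was 0.27, or 0.07 without VP16 4. Nrp1, the neuropilin that carries semaphorin signals, differed by 0.60 (SE 0.34), Sema3f, a semaphorin that acts through neuropilins, by 0.46 (SE 0.63), and Dlg3, a synaptic scaffold, by 0.31 (SE 0.36). Leaving out single arrays lowered them to 0.31 for Nrp1 (without VP16 3), 0.11 for Sema3f (without VP16LXRa 7) and -0.01 for Dlg3 (without VP16 4). Sema3b, a related semaphorin, differed by -0.55 (SE 0.30), or -0.35 without VP16LXRa 5, and Sptbn1, the spectrin that ankyrin links to the membrane, by -0.88 (SE 0.64), or -0.16 without VP16LXRa 5. None of these 5 passed (limma adjusted p = 0.998 for each). Of the Wnt targets, to which NRCAM has been assigned in human cells, 9 of 14 tested genes were higher in VP16LXRa tumours, with a median of 0.16 that was -0.0031 without VP16 2 and 0.53 without VP16 4.

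**Figure D5:**
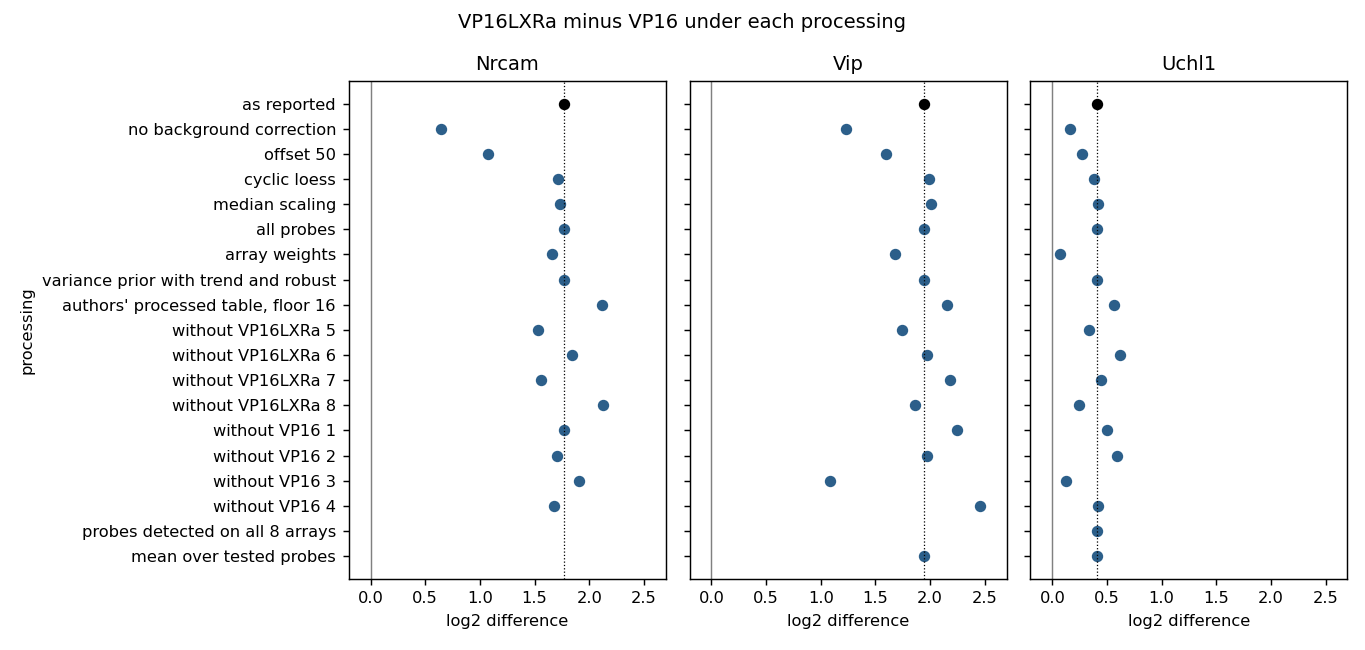
Difference between VP16LXRa and VP16 tumours in log2 units (x axis) of Nrcam, Vip and Uchl1 under each processing (rows), with the reported value as a black point and dotted line. All values lie above 0, Nrcam is lowest without background correction (0.64), and Vip is lowest without VP16 3 (1.08). A row without a point was not run for that gene or left its probe untested.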

How the data were processed

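The members and the gene lists were chosen with earlier results of these data known. Per the file headers, the deposited unnormalized table gives each probe's mean bead intensity (linear, uncorrected) and its detection p-value for each array. The submitters' processing notes name GenomeStudio without a version. The authors' own processed intensities, deposited as a second table, served as an alternative, floored at 16 and put on the log2 scale. Genome build and probe positions are not given in these sources, and 0 columns of per-sample values were left unused.

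From the unnormalized intensities, limma 3.58.1 (R 4.3.3, statmod 1.5.0) corrected background with normexp (offset 16), for which the negative control distribution was inferred out of the detection values, followed by quantile normalization and log2. Tests used lmFit and eBayes on probes whose detection p-value was under 0.05 in 4 or more of 8 arrays. They were two-sided, adjusted by Benjamini-Hochberg over all tested probes, with a threshold of 0.05. The limma fit and its adjustment were tried on simulated levels, which did not cover background correction, normalization or the detection filter. In the lists, the tested probe of highest mean stood for its gene, and lists have no test.

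Named are all members, for each list described the 2 tested genes with the highest mean and the 3 with the largest absolute difference, and the 5 genes with the smallest root mean square difference from Nrcam. Some genes under this rule are not reported here. For lists of other cell types only summaries are given. Genes named for their detection, and second probes, were chosen after their values were seen. So were the lower genes Ret, Map2, Grp, Calca, Stx1a, Vamp1 and Vamp2. Alternatives covered background correction, offset, normalization, filter, array weights, variance prior, the authors' table, the threshold and each array left out. A mean over the tested probes of a gene was also run, but Vip and Uchl1 each had 1 tested probe, so it repeated the reported values. The number of arrays limits the precision.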

Additional observations from a re-analysis of the deposited data

Results flagged for a closer look

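Among 162 sets of 4 values examined (members, named genes and list scores in each group), 13 held 1 array far from the other 3. For unselected, normally spread values chance gives about 1 in 20, or 8.1. Many of these sets were named for a large difference or for likeness to Nrcam, and list scores contain such genes. The 8.1 is therefore only a rough guide for them. None of the 13 was a member. VP16 3 accounted for 4 of them. Gal was 5.29 there, against 8.74 to 9.06 in the other VP16 tumours, Acta2, smooth muscle actin, was 10.24, against 13.88 to 14.38, and Actg2, the enteric muscle actin, was 8.27, against 12.83 to 13.60. The transmitter list scored -0.99 in VP16 3, against -0.13 to 0.02. VP16LXRa 5 accounted for 3, with Thy1 at 10.64, against 8.11 to 8.47 in the other VP16LXRa tumours, Sptbn1 at 5.87, against 8.66 to 8.84, and the list of interstitial cells of Cajal at 0.65, against 0.02 to 0.07. In VP16 4, Npy was 7.39, against 4.76 to 5.17 in the other VP16 tumours, Sct, the hormone secretin, was 11.001, against 12.67 to 12.74, and Col1a1, a fibroblast collagen, was 9.67, against 6.69 to 7.09. In VP16LXRa 8, Ccnd1, cyclin D1, was 11.84, against 12.73 to 12.87 in the other VP16LXRa tumours, and the Wnt target list scored -0.48, against 0.25 to 0.39. The enteroendocrine list scored -0.31 in VP16LXRa 7, against 0.11 in each of the other 3 VP16LXRa tumours.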

How the results depend on the processing

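The count of 0 called probes was 0 in the other settings run, except 1 with cyclic loess, 2 with array weights and 1 at an adjusted p under 0.1, and it ranged from 0 to 2 when single arrays were left out (2 without VP16LXRa 5, 1 without VP16LXRa 8 and 1 without VP16 3). Neither Vip nor Uchl1 passed in any of these. The Nrcam difference moved to 0.64 without background correction and to 1.08 with an offset of 50, and the 14 other settings kept it within the spread between replicates, from 1.53 to 2.12. It could not be fitted among probes detected on all 8 arrays. Vip stayed higher in VP16LXRa tumours and short of the threshold in 17 settings, between 1.08 (without VP16 3) and 2.46 (without VP16 4), with adjusted p from 0.760 to 1.00. Its groups did not overlap without VP16LXRa 7 or without VP16 4. Uchl1 likewise stayed higher and short of the threshold in 18 settings, between 0.07 (array weights) and 0.62, with adjusted p from 0.873 to 1.00. Among the settings of both genes is the mean over tested probes, which repeats the reported value because each had 1 tested probe. The list medians under left-out arrays were added after seeing the data. The neuron median reached -0.08 without VP16LXRa 5 and the glial median -0.08 without VP16 3. No paired analysis was possible because the replicate numbers of the groups (5 to 8 and 1 to 4) do not overlap. Most members lie near background, where a fold change shrinks with the offset, and 3 member probes never rose above it. The cause of these shifts was not tested.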

Other observations

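Genes of neurotrophic signalling, which enteric neurons need to migrate and survive, showed no common direction. Of 6 tested genes, VP16LXRa tumours had 4 higher and 2 lower, and the median difference was 0.15, or -0.08 without VP16LXRa 5, and 0 passed in limma. Gdnf, the factor that draws enteric precursors along the gut, had levels of 5.87, 6.06, 5.73 and 5.76 in VP16LXRa 5 to 8, against 5.63, 4.84, 5.20 and 6.18 in VP16 1 to 4, a difference of 0.39 (SE 0.30, limma adjusted p = 0.998). Edn3, the endothelin that keeps those precursors dividing, differed by -0.44 (SE 0.38), Nrg1, a growth factor for glia, by 0.26 (SE 0.58), and Ece1, the enzyme that activates endothelins, by 0.16 (SE 0.22), with limma adjusted p = 0.998 for each. Without 1 array the differences became 0.18 for Gdnf and -0.18 for Nrg1 (VP16 2), 0.72 for Nrg1 (VP16 4), -0.20 for Edn3 (VP16 3) and 0.08 for Ece1 (VP16LXRa 8). The 2 probes of Ece1 disagreed in sign, with the other at -0.63. Probes also differed for Pmp22, at -0.44 and -2.21, and for Sptbn1, at -0.88, 0.10 and -0.18. They disagreed in sign for Sema3b, at -0.55 and 0.16, and for Acta2, at 1.04, 1.18, -0.16 and -0.20. Of the 3 Mapt probes, 1 differed by 0.47 with groups that did not overlap, while that of the neuron list (0.43) and the third (0.10) overlapped.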
